A study of Mus musculus with 144 samples.

Results

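The genes described here are 37 genes of glucose uptake, glycolysis, lactate handling, pyruvate entry into mitochondria, the hypoxia response and the pentose phosphate branch. They were chosen by name. All 37 were found among the 55364 rows of the expression table, and where a symbol had 2 rows (Aldoa) the row with the higher mean was used. Of the 37, 28 were measured, meaning that they reached 1 FPKM (fragments per kilobase of exon and per M reads, with M for 1e+06) in at least 10% of all cells. In all, 8679 genes were measured in this sense. The 9 members below this level were Slc2a3, Hk1, Pfkm, Pfkp, Aldoc, Slc16a1, Egln1, Egln3 and Vegfa. The level is reached more easily by a gene that is high in 1 group: Slc2a1, Slc2a6, Slc16a3, Pdha1 and Hif1a did not reach it in the untreated cells alone.

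Expression was measured by RNA sequencing of 144 single retinal cells, each a library of its own, from 16-week-old mice of the Iba1-EGFP strain. In such mice a green fluorescent protein follows Iba1, a gene of microglia and of other macrophages, so the sorted cells need not all be microglia. The 3 groups were 54 cells of mice given no treatment, 54 cells taken 2 days after nerve crush and 36 cells taken 4 days after it. All groups carried the reporter, and the labels name no animal for any cell.

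Glycolysis turns glucose into pyruvate in the cytosol and yields ATP without oxygen. Lactate dehydrogenase turns pyruvate into lactate, which restores the NAD+ that the pathway needs, and monocarboxylate transporters carry the lactate out. Hypoxia-inducible factor 1, whose oxygen-regulated subunit is encoded by Hif1a, binds short DNA elements near many of these genes and raises their transcription. Microglia and other macrophages are known to shift towards glycolysis when activated by inflammatory signals.

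The promoters of the members are shown first for 4 genes with higher values at day 4 and for Ldhb, the lactate dehydrogenase gene whose values were not higher. The RefSeq promoter table (GRCm38.p6) held 52 promoters for 36 of the 37 members. In the 250 bases before each start, both strands were searched for ACGTG and GCGTG, the core of the hypoxia response element, and for CACGTG, the E-box, which contains ACGTG. Capitals mark the matches, a match on the other strand reading CACGT or CACGC. Each sequence runs 5′ to 3′ along its gene and ends at the base before the start, except that of Slc16a3, which ends where an annotated exon begins.
Ldha, chr7:46845554-46845803, plus strand: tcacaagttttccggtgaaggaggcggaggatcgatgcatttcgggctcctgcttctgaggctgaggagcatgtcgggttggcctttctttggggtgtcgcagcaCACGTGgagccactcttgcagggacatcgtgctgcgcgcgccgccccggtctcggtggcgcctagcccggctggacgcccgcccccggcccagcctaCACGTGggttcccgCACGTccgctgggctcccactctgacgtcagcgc
Pgk1, chrX:106186850-106187099, plus strand: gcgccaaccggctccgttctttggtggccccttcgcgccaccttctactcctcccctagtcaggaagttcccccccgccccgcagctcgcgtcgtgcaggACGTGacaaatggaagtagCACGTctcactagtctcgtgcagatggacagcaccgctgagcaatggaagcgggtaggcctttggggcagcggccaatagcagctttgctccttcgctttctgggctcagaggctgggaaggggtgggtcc
Hk2, chr6:82774455-82774704, minus strand: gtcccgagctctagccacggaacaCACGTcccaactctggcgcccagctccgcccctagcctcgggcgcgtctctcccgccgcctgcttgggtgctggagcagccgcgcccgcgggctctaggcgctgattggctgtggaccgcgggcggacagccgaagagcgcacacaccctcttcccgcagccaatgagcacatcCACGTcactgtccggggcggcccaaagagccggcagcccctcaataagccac
Slc16a3, chr11:120948817-120949052, plus strand: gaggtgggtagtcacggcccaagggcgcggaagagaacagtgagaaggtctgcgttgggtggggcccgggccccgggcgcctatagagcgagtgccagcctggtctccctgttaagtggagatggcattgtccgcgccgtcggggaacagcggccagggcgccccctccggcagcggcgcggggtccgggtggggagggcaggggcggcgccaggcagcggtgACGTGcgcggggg
Ldhb, chr6:142507958-142508207, minus strand: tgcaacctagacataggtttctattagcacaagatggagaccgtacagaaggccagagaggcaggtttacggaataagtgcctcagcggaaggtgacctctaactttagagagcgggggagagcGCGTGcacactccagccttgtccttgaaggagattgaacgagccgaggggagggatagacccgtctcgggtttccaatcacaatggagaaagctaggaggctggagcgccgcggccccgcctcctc

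The Ldha promoter shown held 5 matches to ACGTG, 4 of them on the 2 strands of its 2 E-boxes, while the Ldhb promoter held 1 match to GCGTG and none to ACGTG. A second Ldha promoter in the table (chr7:46846832-46847081), not shown, held 1 match to GCGTG and none to ACGTG, the same counts as that of Ldhb. The Pgk1, Hk2 and Slc16a3 promoters held 2 matches to ACGTG each, of which 1 in Slc16a3 lay in the part not printed. Among the other members called higher at day 4 (rule below), Gpi1, Pfkl, Tpi1, Gapdh, Eno1, Mpc1 and Tkt held no ACGTG in any window. Slc2a1, Aldoa, Pkm and Hif1a, also called higher, held it in a window. Of the members not called, Hk3, Pfkm, Pfkfb3, Pgam1, Slc16a1, Egln1, Egln3, Bnip3 and Vegfa held it, and the others with a promoter did not. Over the members, 20 of 52 promoters (38.5%) held ACGTG, against 16.6% of all 32851 RefSeq promoters of this length and 23.1% of the 6654 promoters of measured genes. For GCGTG the shares were 57.7%, 28.2% and 44.4%, and for either core 80.8%, 38.6% and 56.7%. Both cores contain a CpG, and the median number of CpG dinucleotides in the window was 14 in member promoters, 6 in all promoters and 16 in promoters of measured genes. Member promoters of 1 gene can overlap one another. These matches describe the letters of the window and do not show that a factor binds there.

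The cells differed in depth and in the number of genes detected, and these values bear on every result below. Cells held 0.190 to 18.9 M reads assigned to genes, with medians of 4.93, 5.32 and 5.80 M among the untreated, day 2 and day 4 cells. The median number of genes at 1 FPKM or more was 2793, 3473 and 3965 in the same order. At least 3 of 10 microglia markers reached 20 FPKM in 54 of 54, 54 of 54 and 35 of 36 cells. By the same rule, cells positive for any of 9 other cell types, mostly border macrophages (5, 8 and 2 cells) and rod photoreceptors (4, 0 and 2 cells), numbered 11, 9 and 5. Each of the 3 plates held all 3 groups, but in separate rows, so plate position and time point cannot be told apart. Reads from other wells were present: of 607 genes with more than 95% of their reads in 1 cell, a read was found in 49.7% of the other wells of the same plate column and in 2.78% of wells of other plates. In the counts of cells, low values were therefore not read as expression, and a cell was counted as holding a gene at 20 FPKM or more. Low values do enter the numbers of genes at 1 FPKM, the differences, the calls and the correlations.

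Each time point is 1 sample of cells, so no test was made. The measure was the difference of mean log2(FPKM + 1), with its value in each plate. A member was called higher when the pooled difference was at least 1 and had that sign in all 3 plates, and called lower for the mirror case. The SDs describe the spread between cells.

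At day 4, 15 of the 37 members were called higher than in untreated cells and 0 lower. The same rule called 18.9% of all measured genes higher and 0.346% lower. The 15 were the glucose transporter Slc2a1, the hexokinase Hk2, the glycolytic genes Gpi1, Pfkl, Aldoa, Tpi1, Gapdh, Pgk1, Eno1 and Pkm, the lactate genes Ldha and Slc16a3, the pyruvate carrier subunit Mpc1, Hif1a and the pentose phosphate gene Tkt. The median difference over all 37 members was 0.97, with 0.57, 1.45 and 0.50 in plates 1, 2 and 3. For all measured genes it was 0.45, with 0.31, 0.70 and 0.32. Among the members, 20 were above 0 in every plate, against 3763 of the 8679 measured genes. Adjusted for the genes detected per cell, as a covariate, the members' median was 0.34 beside 0.06 for all measured genes. With that adjustment 10 members were called higher, while 5.90% of all measured genes were.

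**Figure D1:**
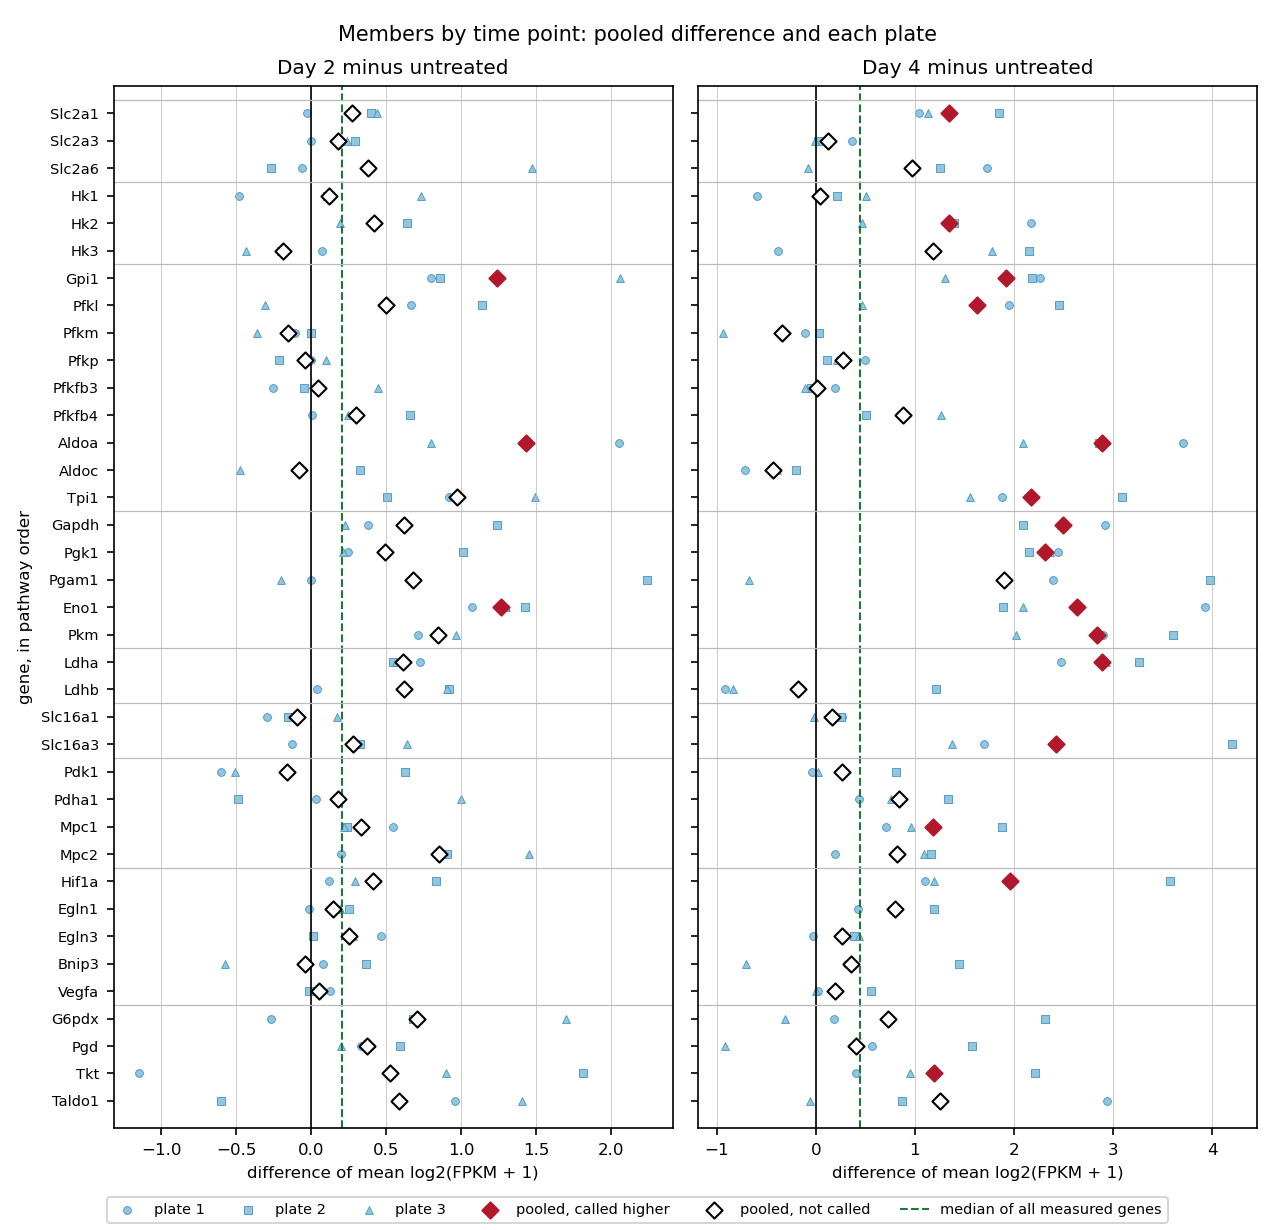
Difference of mean log2(FPKM + 1) from untreated cells for each of the 37 members in pathway order, at day 2 (left) and day 4 (right); small symbols are the 3 plates, diamonds the pooled difference (red where called higher), and the dashed line the median of all measured genes. At day 4 Aldoa and Ldha have the largest differences, 2.89 each, whereas Ldhb lies at -0.18 with plates on both sides of 0.

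Of the 3 glucose transporters, Slc2a1 (GLUT1) was called higher. In untreated cells it ranged from 0 to 191.6 FPKM with a median of 0.068, and at day 4 from 0 to 180.6 with a median of 0.091. Most cells of each group were near 0 and the ranges overlapped, and the groups differed in how many cells were high: 20 FPKM was reached by 1 of 54, 3 of 54 and 8 of 36 cells in time order. Of these high cells, 1 untreated, 0 day 2 and 2 day 4 cells were positive for another cell type. At day 4 Slc2a1 differed from untreated cells by 1.34, with 1.04, 1.85 and 1.14 in the 3 plates. With a pseudocount of 10 FPKM Slc2a1 was not called. Slc2a6, a hexose transporter of intracellular membranes, differed by 0.97 but by -0.07 in plate 3. Slc2a3 (GLUT3) was held by 2 cells of day 2 and by none of the others.

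Hexokinase traps glucose in the cell as glucose 6-phosphate, and Hk2 was the hexokinase gene held by the most cells in each group. Hk2 ranged from 0.116 to 286.2 FPKM in untreated cells (median 7.02), from 0 to 217.4 at day 2 (median 15.03) and from 0.041 to 408.4 at day 4 (median 31.7). It was held by 20 of 54, 21 of 54 and 24 of 36 cells. The ranges overlapped, and the day 4 cells had the highest share. Hk2 differed at day 4 by 1.34, with 2.17, 1.39 and 0.47 in the 3 plates. It was 0.93 without plate 1 and 0.11 when adjusted for detected genes, and was not called in either case. Hk3, a hexokinase of myeloid cells, was held by 7, 6 and 12 cells and differed by 1.18 at day 4, but by -0.38 in plate 1, where none of the 12 cells held it. Hk1 was held by 1, 4 and 1 cells. Of summed hexokinase FPKM, Hk2 made up 53.9%, 78.9% and 54.5% in the 3 groups in time order. At day 4 the share of Hk2 differed between plates, with 98.7%, 54.9% and 42.3%, and in plate 3 Hk3 made up more (55.4%).

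The upper steps of glycolysis convert glucose 6-phosphate into triose phosphates, and 4 of their 9 members were called higher at day 4. Gpi1, glucose phosphate isomerase, was held by 11 of 54, 21 of 54 and 17 of 36 cells and differed by 1.92 (2.26, 2.18 and 1.30 by plate). Pfkl, the liver-type subunit of phosphofructokinase, was held by 6, 11 and 13 cells and differed by 1.62 (1.95, 2.46 and 0.46). Adjusted for detected genes the Pfkl difference was 0.91, and Pfkl was not called. Without the rod-marker cells it was 1.41, but without the same sign in every plate. The other phosphofructokinase subunits were rare. Pfkm was held by 2, 1 and 0 cells and Pfkp by 0, 0 and 1, so that Pfkl was the highest subunit in all 13 day 4 cells that held any.

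Aldoa, the aldolase that splits fructose bisphosphate in most tissues, was among the members with the largest difference. It ranged from 0.546 to 940 FPKM in untreated cells (median 8.39), from 0.324 to 2582 at day 2 (median 116.2) and from 0.438 to 1294 at day 4 (median 286.3). The cells fell into a low and a high class in every group, and the share holding 20 FPKM was 40.7%, 64.8% and 83.3%. The exact 95% intervals of these shares, which cover counting error only, were 27.6% to 55.0%, 50.6% to 77.3% and 67.2% to 93.6%. Mean log2 values were 4.41 ± 2.87 (SD over 54 cells), 5.85 ± 3.19 (54 cells) and 7.30 ± 2.74 (36 cells), a difference at day 4 of 2.89 with 3.70, 2.86 and 2.09 in the plates. In cells thinned to 2 M reads, which leaves out 4, 9 and 0 shallower cells, the shares were 40%, 64.4% and 83.3%. Aldoc, the aldolase known from brain, was held by 2, 2 and 0 cells.

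Tpi1, triosephosphate isomerase, was held by 15 of 54, 23 of 54 and 21 of 36 cells and differed by 2.17 at day 4 (1.87, 3.08 and 1.56 by plate). Adjusted for detected genes the difference was 0.91 and Tpi1 was not called. Pfkfb3 and Pfkfb4 make and break down fructose 2,6-bisphosphate, an activator of phosphofructokinase. Pfkfb4 differed by 0.88, below the size needed for a call. Pfkfb3 differed by 0.01 and was held by 12 of 54, 12 of 54 and 6 of 36 cells. Its mean FPKM was 21.01, 12.7 and 9.43, which on the log2 scale of means is -1.08 at day 4, so the direction for Pfkfb3 depended on the scale.

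The lower steps, from glyceraldehyde phosphate to pyruvate, yield the ATP of the pathway, and 4 of their 5 members were called higher. Gapdh, the dehydrogenase that feeds them, ranged from 1.90 to 2154 FPKM in untreated cells (median 167.0), from 1.97 to 1997 at day 2 (median 237.7) and from 193.4 to 2102 at day 4 (median 646.3). A low class of cells was present in the first 2 groups and absent at day 4, where all 36 cells held 20 FPKM, against 42 of 54 and 46 of 54. Its SD over cells was 2.41, 2.25 and 0.76 on the log2 scale. Gapdh differed at day 4 by 2.49, with 2.92, 2.09 and 2.47 by plate, and 2.42 when adjusted for detected genes.

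Pgk1, phosphoglycerate kinase, was held by 6 of 54, 8 of 54 and 16 of 36 cells. It ranged from 0 to 319 FPKM in untreated cells, from 0 to 4149 at day 2 and from 0 to 399 at day 4, with medians of 0.390, 0.509 and 5.99. The highest value lay in 1 cell of day 2. The difference at day 4 was 2.32, with 2.44, 2.15 and 2.36 by plate. Among cells with 3000 to 4500 detected genes it was 2.19, but without the same sign in every plate. That range held 2, 9 and 10 untreated and 5, 3 and 3 day 4 cells by plate.

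Pgam1, phosphoglycerate mutase, differed by 1.90 but was not called, since plate 3 stood at -0.68. In that plate 8 of 18 untreated cells and 4 of 12 day 4 cells held it. Eno1, enolase, was held by 29, 39 and 33 cells and differed by 2.64 at day 4 (3.92, 1.89 and 2.09 by plate).

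Pkm, pyruvate kinase, makes pyruvate and the last ATP of the pathway. It ranged from 0.362 to 727 FPKM in untreated cells (median 12.9), from 0.139 to 1217 at day 2 (median 44.1) and from 0.045 to 775.9 at day 4 (median 253.7). In 26 of 54, 33 of 54 and 30 of 36 cells it was held at 20 FPKM, and the 6 other day 4 cells lay in the low class. The difference was 2.84, with 2.90, 3.60 and 2.02 by plate. Values here sum the isoforms of the gene, which the table does not separate.

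**Figure D2:**
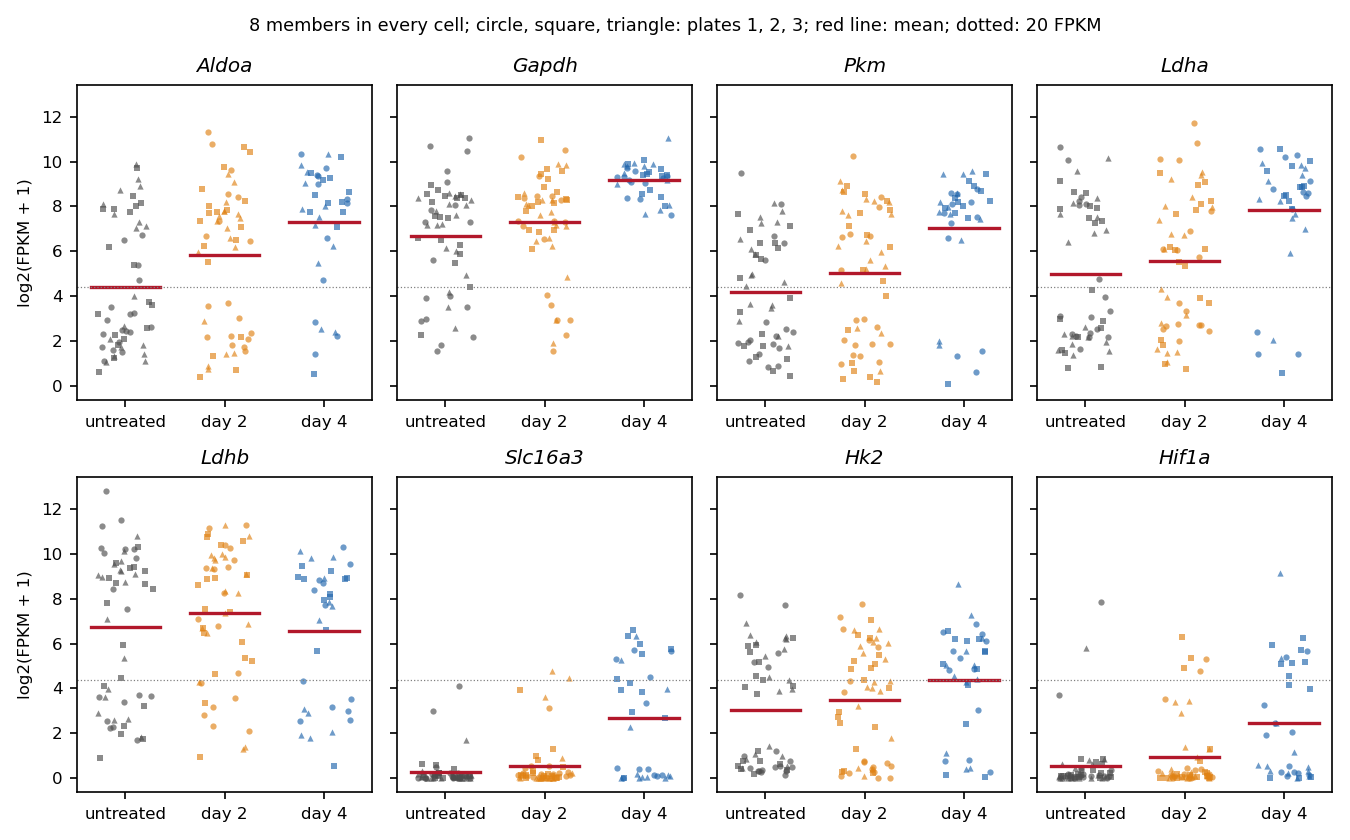
log2(FPKM + 1) of 8 members in every cell by time point; symbols give the plate, red lines the mean and the dotted line 20 FPKM. For Gapdh no day 4 cell lies below 20 FPKM, for Slc16a3 the cells above 20 FPKM are 0, 2 and 12, and for Ldhb the groups overlap over most of their range.

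The lactate dehydrogenase genes were unlike at day 4: Ldha was called higher and Ldhb was not. Ldha encodes the muscle-type subunit and Ldhb the heart-type subunit, and tetramers rich in the first are known for turning pyruvate into lactate. Ldha (chr7:46841475-46855627, GRCm38) ranged from 0.713 to 1602 FPKM in untreated cells (median 11.8), from 0.697 to 3414 at day 2 (median 65.2) and from 0.506 to 1514 at day 4 (median 391.4). It was held by 25 of 54, 31 of 54 and 31 of 36 cells. Only 5 day 4 cells lay in the low class, which held most untreated cells. The difference at day 4 was 2.89, with 2.48, 3.26 and 2.93 by plate.

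Ldhb (chr6:142490249-142507957) ranged from 0.889 to 7136 FPKM in untreated cells (median 346.5), from 0.916 to 2521 at day 2 (median 309.1) and from 0.456 to 1268 at day 4 (median 236.7). It was held by 34 of 54, 43 of 54 and 24 of 36 cells, and the 3 groups overlapped over most of their range. The difference at day 4 was -0.18, with -0.91, 1.22 and -0.83 by plate, and when adjusted for detected genes it was -1.07 and called lower.

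Of the summed FPKM of the 2 genes, Ldha made up 23.2% without crush, 31.7% on day 2 and 61.2% on day 4. By plate, the share was 17.5%, 30.6% and 29.1% in untreated cells and 64.6%, 62.3% and 56.2% at day 4, so the groups did not overlap across plates. At day 2 it was 42.5%, 25.4% and 22.9%. This was above the untreated cells of the same plate in plate 1 and below them in plates 2 and 3. The sum of both genes had a mean of 784.3, 845.0 and 834.7 FPKM and a median over cells of 489.0, 646.8 and 922.2 in time order. The untreated mean includes the cell with 7136 FPKM of Ldhb. Counted by cell, Ldha was above Ldhb in 20 of 54, 17 of 54 and 23 of 36 cells. Cells that held Ldhb alone numbered 17, 18 and 2, cells that held Ldha alone 8, 6 and 9, and cells with both 17, 25 and 22.

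**Figure D3:**
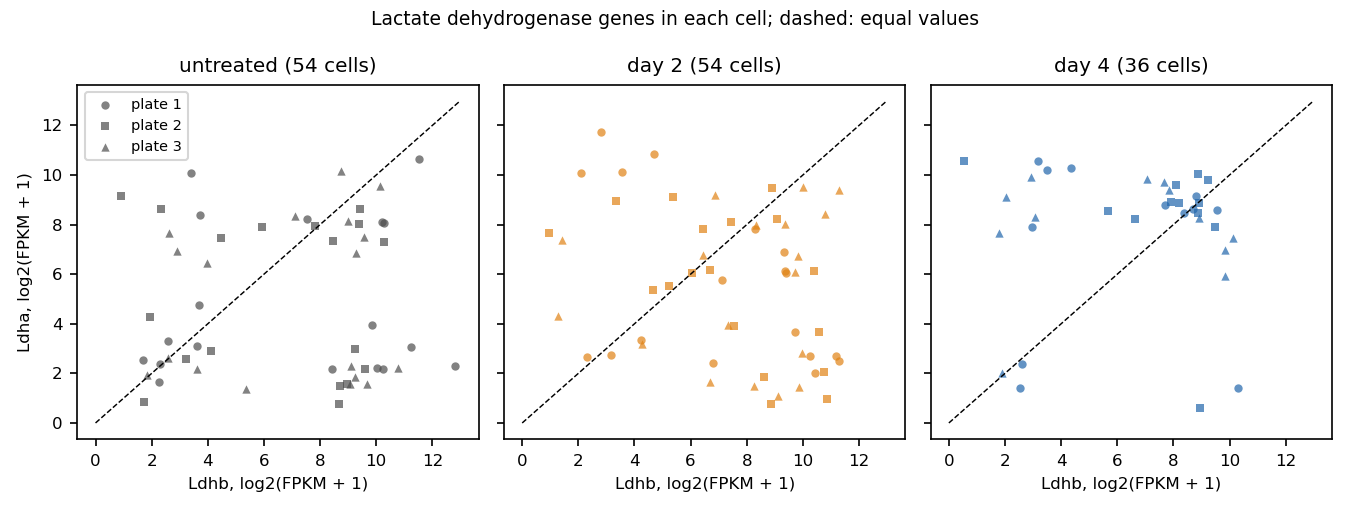
Ldha against Ldhb in each cell, log2(FPKM + 1), by time point, with symbols for the plates and a dashed line of equal values. The lower right, cells with Ldhb but little Ldha, holds 17 untreated cells and 18 cells of day 2 at a threshold of 20 FPKM but 2 cells of day 4.

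Lactate leaves cells by monocarboxylate transporters, and Slc16a3 (MCT4, the exporter of highly glycolytic cells) was near 0 in the untreated cells. Slc16a3 (chr11:120948480-120960868) ranged from 0 to 16.3 FPKM in untreated cells (median 0.050), from 0 to 26.7 at day 2 (median 0.078) and from 0 to 97.8 at day 4 (median 6.05). It was held by 0 of 54, 2 of 54 and 12 of 36 cells, and the 12 lay 4, 6 and 2 in plates 1, 2 and 3. The exact 95% intervals of these shares were 0 to 6.60%, 0.452% to 12.7% and 18.6% to 50.97%. Slc16a3 differed at day 4 by 2.42, with 1.70, 4.19 and 1.38 by plate. Mean FPKM was 0.555, 1.65 and 20.2 in time order. The gene shares exon sequence on the other strand with Csnk1d, whose mean was 15.8 FPKM, and whether the counting used strand is not given in the sources used here. Without strand, reads of the shared stretch cannot be assigned to either gene. Thinned to 2 M reads, 0 of 50, 2 of 45 and 12 of 36 cells held it. Of the 12 day 4 cells, 1 was positive for another cell type. Slc16a1 (MCT1) was held by 2, 0 and 2 cells.

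Pyruvate enters mitochondria through a carrier of the subunits Mpc1 and Mpc2 and is oxidised by the pyruvate dehydrogenase complex, which Pdk1 inhibits. Mpc1 was called higher at day 4, by 1.18 (0.71, 1.88 and 0.97 by plate), but its mean FPKM was 75.3, 80.7 and 79.7, so the groups were near each other on the linear scale. Without plate 2 the Mpc1 difference was 0.84, and when adjusted for detected genes 0.25, and it was then not called. Mpc2 differed by 0.82, Pdha1, a subunit of the dehydrogenase, by 0.84 and Pdk1 by 0.26. Neither Mpc2, Pdha1 nor Pdk1 was called.

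Of the 5 hypoxia genes, Hif1a was called higher. It ranged from 0 to 229 FPKM in untreated cells (median 0.078), from 0 to 77.8 at day 2 (median 0.116) and from 0 to 572.4 at day 4 (median 2.04). Most untreated cells lay near 0 in Hif1a, and 2 of 54, 5 of 54 and 11 of 36 cells held 20 FPKM. The difference was 1.95, with 1.10, 3.57 and 1.19 by plate, and 7 of the 11 high cells were on plate 2. It was not called with a pseudocount of 10 FPKM (0.82). On log2 of mean FPKM (2.21) and in cells with 3000 to 4500 detected genes (1.83) the plates did not all share its sign. In the latter, a plate held as few as 2 untreated or 3 day 4 cells. Hif1a shares exon sequence with Snapc1l on the same strand (mean 17.7 FPKM) and with Gm15283. Hif-1 alpha protein is controlled mostly by its breakdown, which these data do not measure.

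The other 4 hypoxia genes were not called. Bnip3, a mitophagy receptor, differed by 0.35, with -0.71 in plate 3. Egln1 and Egln3 encode prolyl hydroxylases that mark Hif-1 alpha for breakdown, and 0, 0 and 4 cells held Egln1 and 0, 2 and 2 cells Egln3. Vegfa, an angiogenic factor, was held by 1 cell in all, of day 4 and positive for another cell type. On log2 of mean FPKM, where a few high cells weigh most, these 3 genes differed by 2.45 (Egln1), 1.64 (Egln3) and 2.696 (Vegfa). Where no cell held a gene, the exact 95% upper limit of the share was 6.60% for 54 cells and 9.74% for 36 cells.

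The pentose phosphate branch makes NADPH and ribose, and Tkt, transketolase, was called higher at day 4 by 1.19 (0.40, 2.22 and 0.95 by plate). It was held by 14 of 54, 19 of 54 and 18 of 36 cells. The gene shares exon sequence with Mir3076 on the same strand (mean 202.0 FPKM). Tkt was not called without plate 2 (0.67), without cells positive for another cell type (0.87) or when adjusted for detected genes (0.34). Taldo1, transaldolase, differed by 1.25 but by -0.06 in plate 3, and the oxidative enzymes G6pdx and Pgd by 0.73 and 0.41, with plate 3 below 0 for both.

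By the same rule the day 2 cells differed less from the untreated ones. Of the 37 members, 3 were called higher and 0 lower, where the rule called 3.89% of measured genes higher and 0.0576% lower. The 3 were Aldoa (1.43, with 2.06, 1.44 and 0.80 by plate), Eno1 (1.27, with 1.07, 1.43 and 1.30) and Gpi1 (1.24, with 0.80, 0.86 and 2.06). The members' median was 0.38 beside 0.21 for all measured genes, and without plate 3 Gpi1 was not called (0.83). None of the 3 was called when adjusted for detected genes. Ldha differed by 0.61 and Ldhb by 0.62, so the pair was not parted at day 2. Slc16a3 differed by 0.28.

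From day 2 to day 4, 11 members were called higher and 0 lower, beside 9.57% and 0.864% of measured genes. They were Ldha (2.27), Slc16a3 (2.14), Pkm (2.00), Gapdh (1.88), Pgk1 (1.83), Hif1a (1.54), Aldoa (1.45), Eno1 (1.37), Tpi1 (1.20), Pfkl (1.12) and Slc2a1 (1.07). The median over the 37 was 0.66 beside 0.25 for all measured genes, but in plate 3 it was 0.08 beside 0.03. Not called when 1 plate was left out were Eno1 without plate 1 (0.63) and Slc2a1 (0.88), Tpi1 (0.51) and Hif1a (0.94) without plate 2. Without cells positive for another cell type, Slc2a1 (0.78), Pfkl (0.89) and Tpi1 (0.67) were not called. On log2 of mean FPKM, Ldha, Gapdh, Pgk1, Aldoa, Eno1, Tpi1 and Pfkl were not called. Mean FPKM at day 4 was 1.91 times that at day 2 for Ldha, 1.95 for Gapdh and 1.38 for Aldoa. For Pgk1 the direction was the opposite on the scale of mean FPKM (-0.51), where the 1 cell of day 2 with 4149 FPKM weighs most. Ldhb differed by -0.80, with -0.95, 0.29 and -1.74 by plate. The comparisons share cells: day 2 and day 4 were both set against the same untreated cells.

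How much of the pathway a single cell held was counted over 11 steps from hexokinase to lactate dehydrogenase. A step counted as held when any single isozyme of it reached 20 FPKM. The median cell held 4 steps at 20 FPKM when untreated, 6 at day 2 and 8 at day 4. All 11 steps were held by 0 of 54, 0 of 54 and 6 of 36 cells, and at least 6 steps by 16, 31 and 28 cells. By plate, cells with at least 6 steps numbered 1, 7 and 8 of 18 in untreated cells and 8, 11 and 9 of 12 at day 4. The scarcest step was phosphoglycerate kinase in untreated cells (6 of 54), phosphoglycerate kinase again at day 2 (8 of 54) and phosphofructokinase at day 4 (13 of 36). The hexokinase step was held by 22, 24 and 28 cells, and the lactate dehydrogenase step by 42, 49 and 33. The number of detected genes also differed between the groups, with the medians given above, and its part in these step counts was not tested.

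**Figure D4:**
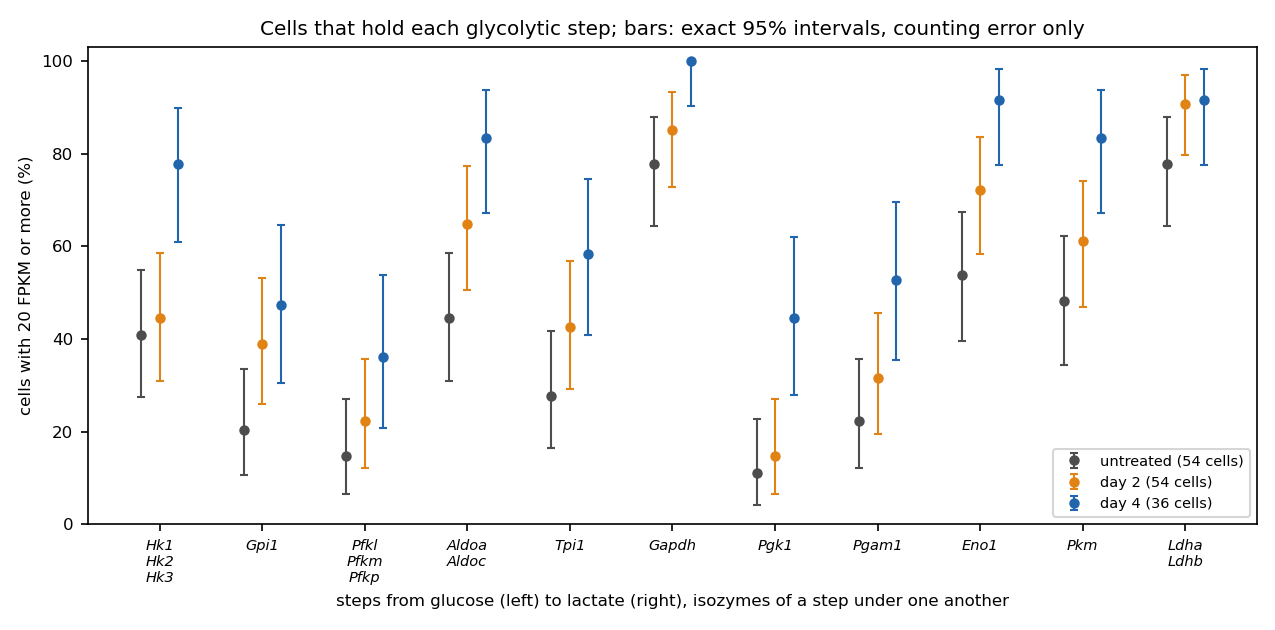
Share of cells that held each of 11 glycolytic steps at 20 FPKM or more, from hexokinase at the left to lactate dehydrogenase at the right, with exact 95% intervals for counting error only. The day 4 share is the highest at each step, from 36.1% at phosphofructokinase to 100% at Gapdh.

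A cell's level over all measured members followed the number of genes detected in it. The mean log2 level of the 28 measured members in a cell had medians of 2.24, 2.93 and 3.97 in the 3 groups, with ranges of 0.89 to 4.43, 1.27 to 4.81 and 1.71 to 5.91. Within a group this level correlated across cells with the number of genes detected at a Pearson r of 0.72 (54 cells), 0.79 (54 cells) and 0.81 (36 cells). Across the 378 pairs of measured members the median r was 0.065, 0.094 and 0.19, and after removing plate and detected genes 0.0074, 0.011 and 0.052. These are descriptions over cells that share plates and depth. At day 4 the r of all pairs ran from -0.44 to 0.71. Among the pairs looked at singly, Ldha and Pkm had the highest r at day 4, 0.63, and 0.51 after the same removal. The same pair stood at 0.31 at day 2 and at 0.18 in untreated cells. Other pairs looked at singly lay at day 4 between 0.02 (Ldha and Ldhb) and 0.42 (Ldha and Slc16a3). The members whose level followed the mean of the others most closely at day 4 were Tpi1 (r of 0.72), Pgam1 (0.69), Slc16a3 (0.66), Pkm (0.66) and Pgk1 (0.60). After the same removal Pgam1 stood at 0.28 and the other 4 between 0.41 and 0.53.

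**Figure D5:**
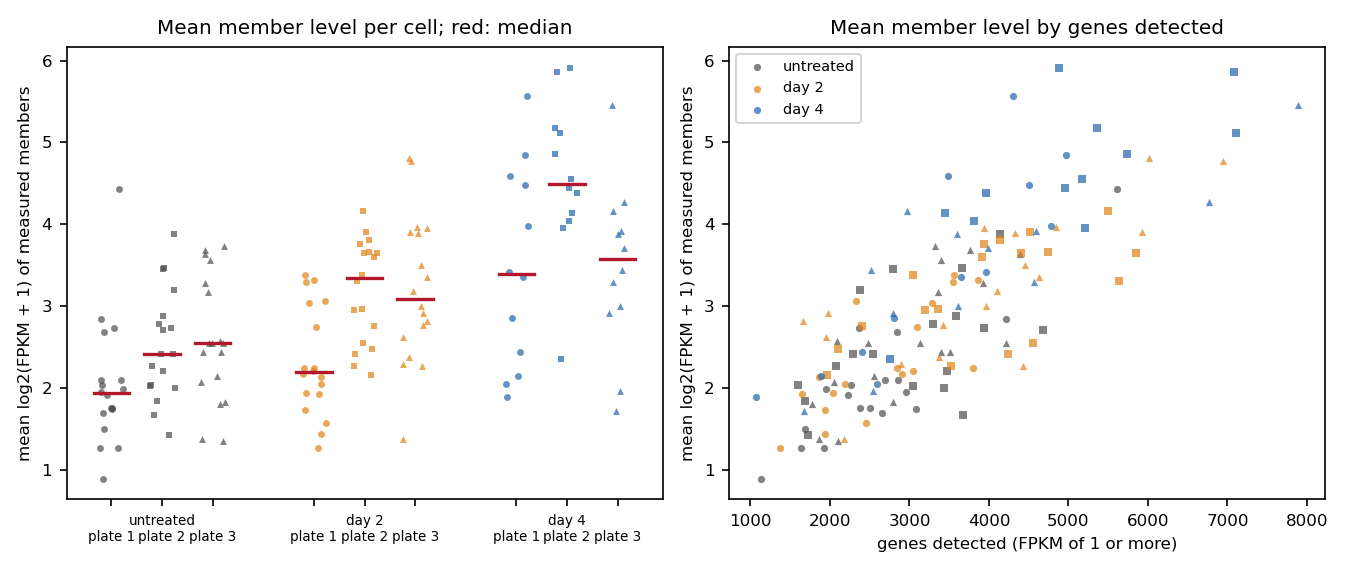
Mean log2(FPKM + 1) of the 28 measured members in each cell, by time point and plate with medians in red (left), and against the number of genes detected, with the plate symbols of the left panel (right). The medians at day 4 are the highest in each plate (3.39, 4.49 and 3.57), and the level rises with the number of genes detected in every group.

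The title of the series names Gpr84, a G protein-coupled receptor, and the cytokine genes Tnf and Il1a. The r of the mean member level was 0.34, 0.44 and 0.41 with Tnf, 0.41, 0.49 and 0.44 with Gpr84 and 0.36, 0.45 and 0.61 with Il1a in the 3 groups, and after removal of plate and detected genes it lay between -0.11 and 0.28. The 10 other genes most like the mean member level, by the mean of the 3 r values without that removal, were Olfml3 (0.57), Ostf1 (0.56), Nfkbia (0.55), Ppt1 (0.54), Nagpa (0.53), 1810014B01Rik (0.53), Mir686 (0.53), Gm3375 (0.53), Psmb5 (0.53) and Abhd12 (0.52). The mean member level followed the number of genes detected, and whether these 10 genes do so too was not tested.

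Other genes of the same pathways were counted by the same rule, which called 18.9% of all measured genes higher at day 4. Of 22 further glycolysis genes 6 were measured and 1, Eno1b, was called higher at day 4. It is a near-identical copy of Eno1, and 97.9% of its values were fractions of a read. The fructose transporter Slc2a5 differed by -1.03, with 0.77 in plate 2. Of 17 further lactate and pyruvate genes 7 were measured and 2 called higher, Pdk3 (1.36), an inhibitor of pyruvate dehydrogenase, and Dld (1.13), a subunit of it. Bsg, the chaperone of monocarboxylate transporters, differed by 1.24 but by -1.40 in plate 3.

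Of 27 further hypoxia-response genes 10 were measured and 2 called higher at day 4, a share near that of all measured genes. Mif, a cytokine, differed by 4.00 (4.55, 4.28 and 3.19 by plate), from a mean of 123.0 FPKM in untreated cells to 170.4 and 424.8, and Higd1a, a mitochondrial protein, by 2.65. P4ha1, a collagen prolyl hydroxylase, differed by 2.02, but by -0.06 in plate 3. The median over the 10 was 0.46, near the 0.45 of all measured genes. Of 9 further pentose phosphate genes 2 were measured and 0 called. All 17 genes of the citrate cycle list were measured, and 6 were called higher at day 4 (Idh3a, Ogdh, Suclg2, Sdha, Sdhb and Mdh1) and 0 lower. Of all measured genes 18.9% were called higher. Their median was 1.14 beside 0.45. Mdh1, the cytosolic malate dehydrogenase and so not the enzyme of the cycle itself, differed by 2.35 already at day 2 and by 2.27 at day 4. Mdh2, the mitochondrial one, differed by 2.04 at day 4, but by -0.16 in plate 3, and was not called.

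Several members have near-identical copies elsewhere in the genome, and their values are uncertain for that reason. Fractions of a read made up 97.9% of the values above 0 for Gapdh, 95.8% for Eno1, 92.1% for Pgam1, 88.9% for Mpc1, 87.5% for Pkm, 78.3% for Pgk1, 77.8% for Ldha and 59.7% for Aldoa, against 0.92% for Slc16a3 and 0.70% for Hk2. Gapdh had similar transcripts in 254 other rows, 251 of them pseudogenes, which held 25.6% of the joint reads, and the share was 23.04% for Mpc1, 16.5% for Pgk1, 16.3% for Pgam1, 13.3% for Eno1 and 0.62% for Ldha. When the reads of those rows were added to the member, all 15 calls at day 4 were kept. Of these members, Slc2a1, Hk2, Pfkl, Slc16a3, Hif1a and Tkt had no such rows, so their calls could not change. For Gpi1, Tpi1, Ldha and Aldoa those rows held 1.02%, 0.85%, 0.62% and 0.066% of the joint reads, so little could change. Among the 28 measured members, 16 had more than 50% of their values in whole reads, and 6 of these were called higher at day 4. The same rule called 18.9% of all measured genes higher. That share was not counted among genes with mostly whole reads. Besides Slc16a3, Hif1a and Tkt, the called members Slc2a1, Aldoa, Tpi1, Gapdh, Pkm and Mpc1 also share exon sequence with another gene. Of these, Pkm does so on the same strand (Gm49759, mean 18.9 FPKM) and the others on the other strand. For Mpc1 the mean of that gene was 52.5 FPKM, against 78.4 for Mpc1.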

How the data were processed

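Titles gave the time point, plate and well of the 144 cells. Per the labels' protocols, cDNA of a sorted, lysed cell was amplified in the same tube and made into libraries with the Nextera XT kit. The submitters' processing notes name cutadapt 1.16, Trim Galore 0.4.4, Trimmomatic 0.36, featureCounts 1.6.1, STAR 2.7.2b and the builds mm10 and GRCm38.p6, with no role or order. How these tools were set is not given in the sources used here. FPKM values were computed by the authors before deposit and, multiplied by gene length, sum to 1e+09 in each cell. Lengths are of the union of exons, which lowers levels of genes with long rare exons.

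The step between low values gave the reads per cell. A median of 59.4% of values per cell (49.1% to 69.0%) were whole reads within 0.01, too few for a count model. Values were compared as means of log2(FPKM + 1), pseudocount 1, which understates changes of low genes. With no animal named, each time point was 1 sample and no test was made. Intervals are exact Clopper-Pearson 95% and cover counting error only. Plates are those of the titles. Named genes were all 37 members, the 10 genes most correlated with their mean level, and measured genes of 5 pathway lists, where a result turned on them. Members and lists were chosen with earlier results of these data known. Alternatives were other pseudocounts, scales, filters, rescaling, depth, left-out plates and left-out cells. Similar transcripts (90% identity over at least 200 bases, GENCODE M21) were found with BLAST+ 2.17.0; other steps used Python 3.11.15 with numpy 2.4.6, pandas 2.3.3 and scipy 1.17.1. The depth recovery and the call rule were checked on simulated data.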

Additional observations from a re-analysis of the deposited data

How the results depend on the processing

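Of the 15 members called higher at day 4 than in untreated cells, 7 kept the call under all 15 alternatives (Gpi1, Aldoa, Gapdh, Eno1, Pkm, Ldha and Slc16a3). Equal weight for each plate could not end a call, since the plates of a group hold equal numbers of cells. Dropping the filter on low values could not end one either. Adding the reads of copies could not end the call of Slc16a3, which had no similar rows. How many of all measured genes kept a call under every alternative was not counted. The share of all measured genes called moved as well, and stands in brackets after each count. The count was 9 with a pseudocount of 10 FPKM (5.21%), which ended the calls of Slc2a1, Hk2, Pfkl, Mpc1, Hif1a and Tkt, and 12 on log2 of mean FPKM (13.4%). It was 10 when adjusted for detected genes (5.90%), with a median of 0.34 beside 0.06 for all measured genes. In cells with 3000 to 4500 detected genes the count was 9 (11.03%). This alternative, chosen after seeing the data, left 21, 24 and 11 cells. By plate these were 2, 9 and 10 untreated cells, 7, 9 and 8 of day 2 and 5, 3 and 3 of day 4. The sign in a plate can thus rest on 2 or 3 cells of a group. In those cells the median was 0.68 for members and 0.15 for all measured genes. 1 member was called lower on log2 of mean FPKM (Pfkfb3) and 1 when adjusted for detected genes (Ldhb). Leaving out a plate gave 14 to 20 members higher (16.6% to 25.4%).

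At day 2 the count of 3 became 5 with a pseudocount of 0.1 FPKM (9.48%), 1 with 10 FPKM (0.588%) and 0 when adjusted for detected genes (0.933%). Leaving out a plate gave 3 to 6, with 6 without plate 1 (9.54%) and 5 without plate 2 (4.84%). The median was 0.13 with a pseudocount of 10 FPKM, 0.12 on log2 of mean FPKM, 0.13 when adjusted for detected genes and 0.15 in the cells with 3000 to 4500 detected genes. For all measured genes it was 0.06, 0.10, 0.0045 and 0.07 in the same order. From day 2 to day 4 the count of 11 became 6 with a pseudocount of 10 FPKM (2.58%), 4 on log2 of mean FPKM (10.4%), 7 when adjusted for detected genes (4.86%) and 7 in the cells with 3000 to 4500 detected genes (9.19%). Leaving out a plate gave 9 to 18 (9.08% to 18.5%), with 18 without plate 3 and with 1 member, Ldhb, lower without plate 2. Pgk1 stood at -0.51 on log2 of mean FPKM. Pkm alone of the members kept its call there under all 15 alternatives, again without a count over all measured genes. The median correlations between members after removal of plate and detected genes were 0.0074, 0.011 and 0.052. The causes were not tested. No paired analysis was possible because the well numbers that groups share only name cells; the plates, which hold every group, enter through the within-plate differences. Thinning to 2 M reads moved no member's share of cells beyond its interval.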
